A study of Arabidopsis thaliana with 6 samples.

Results

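*YAB3* (AT4G00180), *YAB5* (AT2G26580), *INO* (AT1G23420), *PHV* (AT1G30490), *SEU* (AT1G43850) and *LAS* (AT1G55580) are 6 genes that either belong to the YABBY family of *FIL* or act beside it in organ polarity and meristem development. They were taken from the array annotation by locus, and all 6 had a probe set assigned to no other gene, 1 each, among 13436 probe sets that stand for 1 gene and 22746 probe sets in all that are not Affymetrix controls. Expression was measured on 6 Affymetrix ATH1 arrays, 3 with RNA from *bp er* and 3 with RNA from *bp er fil-10* inflorescences. Plants were 5 weeks old, grown at 22°C with 16 h of light and 8 h of dark, and their buds had not passed floral stage 13. Both genotypes are mutant for *BREVIPEDICELLUS* (*BP*), a class I *KNOX* homeobox gene, and for the receptor kinase gene *ERECTA* (*ER*), so no wild-type inflorescence entered the comparison. The *bp er fil-10* line carries in addition *fil-10*, a weak recessive allele with a proline-to-leucine change ahead of the zinc finger of FIL, which arose in an EMS screen of *bp-2 er* seed and was backcrossed to that parent. The *bp er fil-10* arrays therefore stand for 1 mutant allele in 1 background.

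YABBY proteins pair a zinc finger with a DNA-binding YABBY domain. In Arabidopsis most of them mark the abaxial, or outer, side of leaves and floral organs. HD-ZIP III homeodomain proteins such as PHV act on the opposite, adaxial side and are restricted to it by microRNAs that cut their transcripts. FIL and YAB3 are close relatives with overlapping functions, and YABBY proteins bind the LEUNIG co-repressor and its partner SEU, through which they can silence target genes. LAS, a GRAS protein needed to form axillary meristems, has been placed in a signalling route from FIL-expressing organ primordia to the meristem centre. The comparison of *bp er fil-10* with *bp er* asks whether these relatives, antagonists and partners differ in transcript level when FIL is mutated.

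The deposited value is a MAS signal, which measures hybridization intensity linearly for each probe set, and which the authors scaled so that every array has the same target mean. It can be compared between arrays for 1 probe set, not between probe sets. A signal of 100 was used as a working minimum, and 14456 probe sets that reached it on at least 3 of the 6 arrays were tested with limma on log2 signals. Differences are given on the log2 scale, positive where the mean was higher in *bp er fil-10*, and the interval given with it is limma's 95% confidence interval for that gene alone. Of the 6 genes, 5 reached the minimum and *LAS* did not. Replicates were labelled as biological, and 3 arrays per genotype limit how precise any value here can be. The inflorescence is a mixed tissue, so fewer cells of a type and less RNA per cell cannot be told apart.

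*YAB3* and *PHV*, an abaxial and an adaxial factor, had the higher signals in *bp er fil-10*, on every array and by modest amounts, while *YAB5*, *INO* and *SEU* overlapped between the genotypes. None of the 5 genes tested passed limma's adjusted threshold of 0.05, which 0.00692% of all probe sets passed. With the replicate number as a block, 0 of the 5 passed as well, against 3.74% of all probe sets. Before adjustment, 1 of the 5 genes, *YAB3*, had a p under 0.05 in limma, against 16.8% of all probe sets.

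The *YAB3* signal was 460.3, 644 and 409 on *bp er* replicates 1, 2 and 3, and 677, 705 and 671 on *bp er fil-10* replicates 1, 2 and 3. All *bp er fil-10* arrays lay above all *bp er* arrays, by as little as 27.4 signal units between *bp er* replicate 2 and *bp er fil-10* replicate 3. The means were 504 ± 124 and 684 ± 18.1 (SD, n = 3 arrays per genotype), and the *bp er* arrays were the more scattered. The log2 difference was 0.47 (SE 0.19, 95% interval 0.03 to 0.91), a 1.38-fold higher level, with a limma adjusted p of 0.270. Taken within replicate numbers the log2 differences were 0.56, 0.13 and 0.72 for replicates 1, 2 and 3. The size depended most on which *bp er* array was present, from 0.33 without replicate 3 to 0.66 without replicate 2.

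*PHV* encodes an HD-ZIP III transcription factor that, with its near relative PHB, promotes adaxial fate. In the order of replicates 1, 2 and 3 its signal was 615, 759 and 551 for *bp er* and 828, 910.3 and 764.5 for *bp er fil-10*. Again no array of one genotype fell among those of the other, but the gap was 5.5 signal units, between *bp er* replicate 2 and *bp er fil-10* replicate 3. The means were 642 ± 106 and 834 ± 73.1 (SD, n = 3 arrays per genotype), a log2 difference of 0.39 (SE 0.17, 95% interval −0.0015 to 0.78) or 1.31-fold, with a limma adjusted p of 0.298. The within-number differences were 0.43, 0.26 and 0.47, and without overlap they could only be positive. Arrays that do not overlap, with the higher signals in *bp er fil-10*, were found for 2 of the 5 genes, *YAB3* and *PHV*, and for 14.2% of all probe sets. The same 2 genes were higher in all 3 numbered pairs, as were 25.1% of all probe sets. For genes whose arrays do not overlap this is fixed in advance, so it adds nothing to the lack of overlap. Of all probe sets tested, 22.8% differed between genotypes by more than *YAB3* and 30.7% by more than *PHV* in size.

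**Figure D1:**
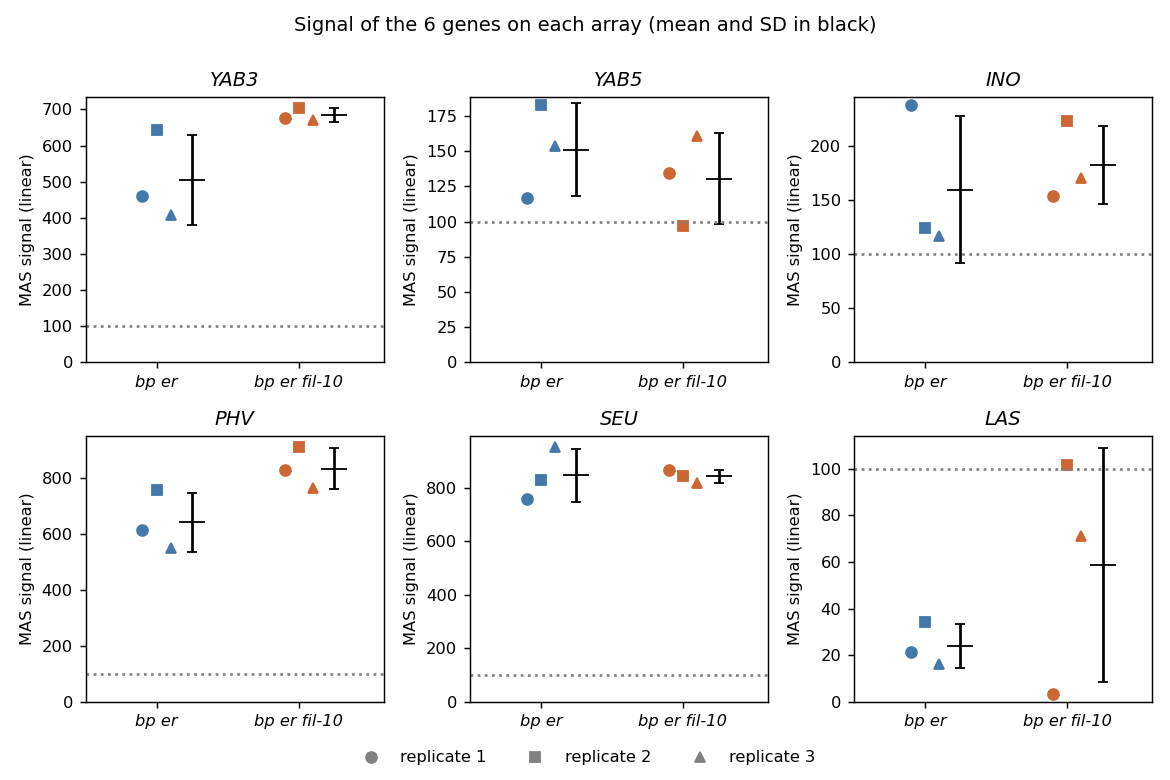
MAS signal (linear axis from 0) of each of the 6 genes on each array, with *bp er* in blue, *bp er fil-10* in orange and the replicate number as the symbol; black marks give the mean and SD of 3 arrays and the dotted line a signal of 100. For *YAB3* and *PHV* the lowest *bp er fil-10* array (671 and 764.5) lies above the highest *bp er* array (644 and 759), and for the other 4 genes the genotypes overlap.

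*YAB3* and *PHV* also followed each other from array to array. Ranked by signal, the 6 arrays fell in the same order for both genes: *bp er* replicates 3, 1 and 2, then *bp er fil-10* replicates 3, 1 and 2. Pearson's r of their log2 signals was 0.97 over the 6 arrays, and 0.92 when each genotype's mean was first removed. This is a description of 6 arrays on which every probe set shares the same RNA and the same scaling factor. The array medians had that order in *bp er* and not in *bp er fil-10*, where replicate 1 had the lowest, and they ranged from 193 to 211 in *bp er* and from 203 to 215 in *bp er fil-10*. With each array centred on its median log2 signal, the differences were 0.39 for *YAB3* and 0.31 for *PHV*. An r above 0.9 was not confined to this pair: 246 of 7811 other named probe sets had one with *YAB3* and 314 had one with *PHV*. The 180 in both groups made up 73.2% of the first and 57.3% of the second. *PHV* stood at place 43 among the genes most like *YAB3*, and *YAB3* at place 47 among those most like *PHV*. The 2 named genes closest to *YAB3* were *AT3G04160* (r = 0.998) and *AT3G05510* (r = 0.994), and those closest to *PHV* were *AT1G04985* (r = 0.995) and *FIP2* (r = 0.994), each over 6 arrays. On *bp er* replicates 1 and 3 *AT3G04160* had signals of 48.8 and 32.2, and *AT3G05510* had 99.8 and 81.0. Their r with *YAB3* thus rests in part on signals under 100.

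*YAB5*, a YABBY gene that is expressed in leaves as well as flowers, had signals of 116.5, 183 and 154 in *bp er* and 134, 96.6 and 161 in *bp er fil-10*. The arrays interleaved, and the lowest of the 6, *bp er fil-10* replicate 2, was the only one under 100. The means were 151 ± 33.2 and 131 ± 32.3 (SD, n = 3 arrays per genotype), a log2 difference of −0.22 (SE 0.32, limma adjusted p = 0.761). Its interval, −0.95 to 0.51, reached from a 1.93-fold lower to a 1.43-fold higher level. Most of the mean difference came from 1 array, since without *bp er fil-10* replicate 2 it was −0.02.

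*INO* (*INNER NO OUTER*) is the YABBY gene of the ovule, where it is needed for growth of the outer integument. Its signal was 238, 125 and 117 for *bp er* and 154, 223 and 170.4 for *bp er fil-10*. The highest value of all came from *bp er* replicate 1 and the lowest from the other *bp er* arrays, so every *bp er fil-10* array lay between them. The means were 159.9 ± 68.1 and 182.5 ± 36.35 (SD, n = 3 arrays per genotype), a log2 difference of 0.25 (SE 0.33, 95% interval −0.51 to 1.01, limma adjusted p = 0.730). It was 0.58 without *bp er* replicate 1 and 0.06 without *bp er* replicate 3. Among all pairs of the 6 genes, *INO* and *YAB5* had the most negative r, −0.82 over 6 arrays and −0.80 with the genotype means removed, again as a description. *INO* and *SEU* came next, with −0.72 and −0.76. By rank (Spearman's rho) the order was the reverse, −0.66 for *INO* with *YAB5* and −0.71 for *INO* with *SEU*. The closest named genes were *AT3G49080* (r = 0.997) and *SAY1* (r = 0.977) for *INO*, and *AT1G01310* (r = 0.986) and *AT5G55050* (r = 0.971) for *YAB5*.

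**Figure D2:**
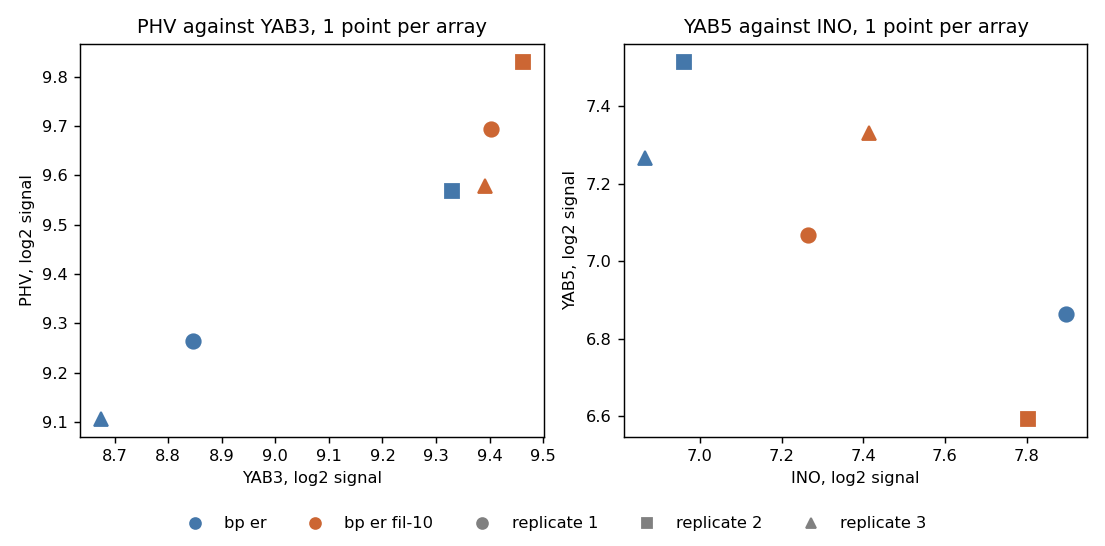
Log2 signal of *PHV* against *YAB3* (left) and of *YAB5* against *INO* (right), 1 point per array, with *bp er* in blue, *bp er fil-10* in orange and the replicate number as the symbol. *PHV* is high where *YAB3* is high over the 6 arrays (r = 0.97), and *YAB5* is low where *INO* is high (r = −0.82).

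*SEU* encodes a glutamine-rich adaptor that joins the LEUNIG co-repressor to DNA-bound factors. Its signal was 757, 828 and 950.3 in *bp er* and 866, 842 and 816 in *bp er fil-10*, so that all *bp er fil-10* arrays lay within the span of the *bp er* arrays. The means of 845 ± 97.7 and 841 ± 24.75 (SD, n = 3 arrays per genotype) gave a log2 difference of −0.0004 (SE 0.15, 95% interval −0.34 to 0.34, limma adjusted p = 0.999). This was the narrowest interval of the 5 genes, and it ends at a 1.27-fold change in either direction. The closest named genes were *AT5G51280* (r = 0.982) and *AT5G12010* (r = 0.977). Intervals that end short of a 1.9-fold change were also obtained for *PHV*, up to 1.71-fold, and narrowly for *YAB3*, up to 1.87-fold. The study used 1.9-fold as its extended limit, but on folds of average MAS signals. Its measure is therefore not the log2 difference used here, and the limit serves only as a yardstick of size. On the log2 scale, 1.9-fold is 0.926. With 1 array left out, the upper end for *YAB3* ran from 0.76 to 1.06 and that for *PHV* from 0.68 to 0.933. With no intensity trend the upper end for *YAB3* was 0.941. Neither interval therefore ended short of 1.9-fold in every fit. For *YAB5* and *INO* the intervals did not leave out a 1.9-fold change.

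**Figure D3:**
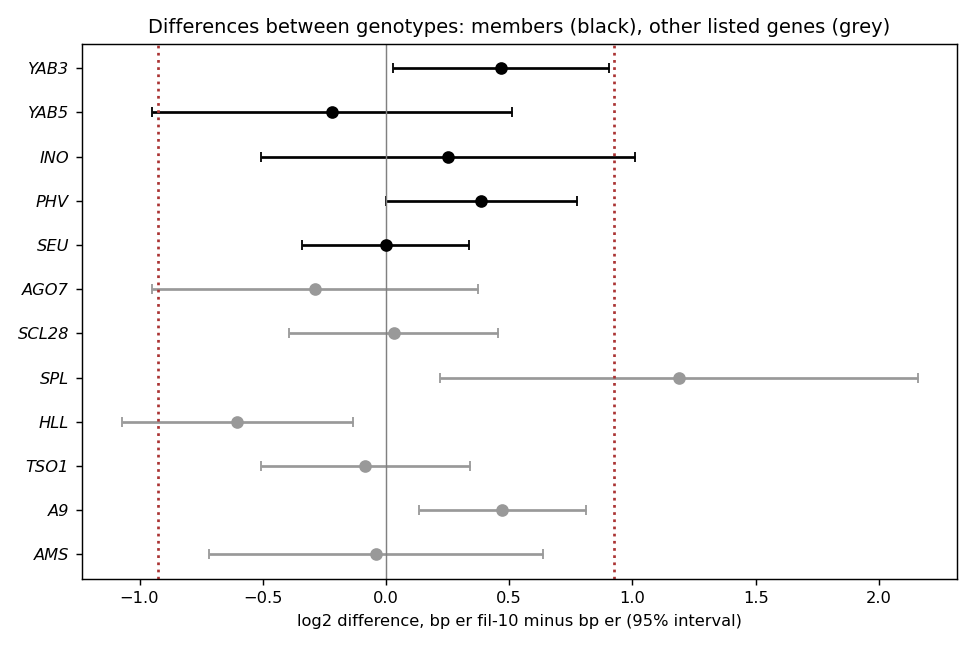
Log2 difference, *bp er fil-10* minus *bp er*, with limma's 95% interval for the 5 genes tested (black) and for 7 further polarity, GRAS, ovule and anther genes (grey), n = 3 arrays per genotype; red dotted lines mark a 1.9-fold change. *YAB3* (0.47) and *PHV* (0.39) lie to the right of 0 and *SEU* sits on it with the narrowest interval of the 5.

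*LAS* was close to the lower end of the scale. Its signal was 21.2, 34.3 and 16.1 for *bp er* and 3.5, 102 and 71.0 for *bp er fil-10*. Only *bp er fil-10* replicate 2 reached 100, and *bp er fil-10* replicate 1 was the lowest array of all, below every *bp er* array. The means were 23.9 ± 9.39 and 58.7 ± 50.2 (SD, n = 3 arrays per genotype). The ratio of the mean signals was 2.46, while the difference of the log2 means was 0.37, and with signals under 100 raised to 100 it was 0.01. The ratio was 3.62 without *bp er fil-10* replicate 1, 1.56 without replicate 2 and 2.20 without replicate 3. On the log2 scale the sign itself turned, to −0.53 without *bp er fil-10* replicate 2 and to −0.27 without *bp er fil-10* replicate 3. The study placed *LAS* among its up-regulated genes on these same arrays, so the mean ratio is no independent evidence of a direction. The ratio of 2.46 lies between the study's limits of 1.9-fold for its extended list and 2.5-fold for its short list. By its methods, genes called absent or with an average skewed by 1 anomalous signal were removed, but those calls are not among the values used here. *LAS* did not enter the main test, because too few of its arrays reached the minimum signal. With no filter on low signals, limma gave it a log2 difference of 0.37 with a 95% interval of −2.41 to 3.15 and an adjusted p of 0.926.

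**Figure D4:**
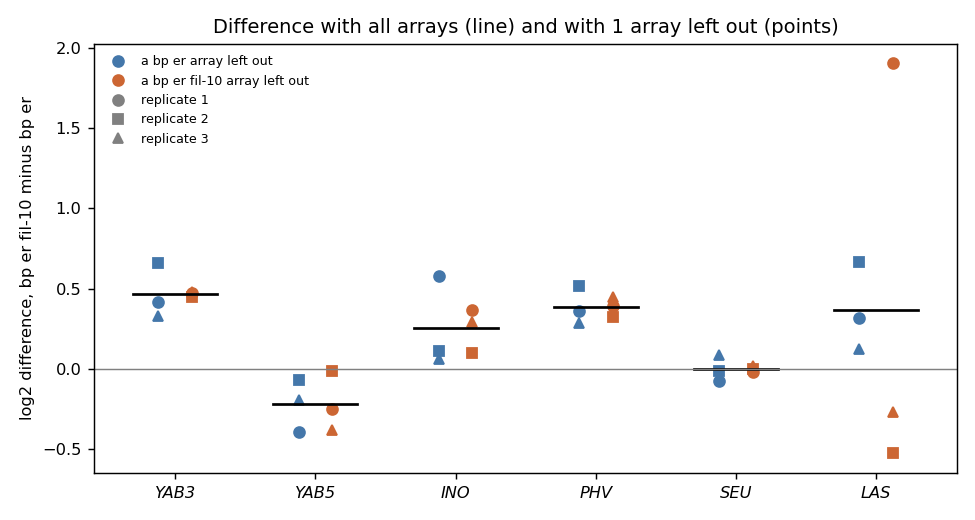
Log2 difference of each gene with all 6 arrays (black line) and with 1 array left out (points, blue where the omitted array is *bp er* and orange where it is *bp er fil-10*; the symbol is its replicate number). The points of *YAB3* (0.33 to 0.66) and *PHV* (0.28 to 0.51) stay above 0, those of *YAB5* stay below it, and those of *LAS* run from −0.53 to 1.903.

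Other genes of these pathways were few on the annotated part of the array. Of 103 further genes in lists of YABBY, HD-ZIP III, KANADI and ARF polarity, co-repressor, GRAS, boundary, *KNOX*, blade growth, ovule, floral identity, anther, meristem and root genes, 13 had a probe set named for 1 gene, and 7 of these were tested. *FIL* itself, the *KANADI* genes, *AS1*, *AS2*, *LUG*, *PHB*, *REV* and all *KNOX* and floral identity genes listed were not analysed here, so the genotype was not checked against *FIL* transcript. Limma called 0 of the 7 after adjustment, with or without the replicate block, and 3 had an unadjusted p under 0.05, against 0.00692%, 3.74% with the block and 16.8% of all probe sets. Their median log2 difference was −0.04, beside 0.25 for the 5 genes tested above and 0.06 for all probe sets tested.

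*AGO7*, which encodes the Argonaute that starts production of the small RNAs that limit *ARF3* and *ARF4*, differed by −0.29 (SE 0.29), from 227 ± 79.7 to 181 ± 31.45 (SD, n = 3 arrays per genotype), with overlapping arrays. The GRAS gene *SCL28* (AT1G63100), from the family of *LAS*, had 331 ± 52.9 and 337 ± 36.8 (SD, n = 3) and differed by 0.03 (SE 0.19). *JAG*, a zinc finger gene that promotes growth of lateral organs, had signals of 69.9, 89.5 and 40.8 in *bp er* and 88.4, 111.5 and 95.7 in *bp er fil-10*, and its relative *NUB* had 7.1, 3.9 and 5.6 against 12.2, 34.5 and 42.1. Both were below the minimum for testing. The *NUB* arrays did not overlap, but all were under 100, where a signal could not be separated from background. The share of 14.2% of probe sets that did not overlap in this direction covers tested probe sets only, so it gives no measure for *NUB*.

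Genes of the ovule and anther, organs in which *INO* and other YABBY genes act, did not share a direction, and none passed limma's adjusted threshold. Of 9 ovule genes listed, 3 were measured. *HLL* (*HUELLENLOS*), a mitochondrial ribosomal protein gene needed for ovule growth, had signals of 763, 936 and 726 in *bp er* and 417, 532 and 667 in *bp er fil-10*. The log2 difference was −0.60 (SE 0.21, limma adjusted p = 0.214). Its *bp er fil-10* arrays all lay below the *bp er* arrays, as did those of 9.13% of all probe sets. *SPL* (*SPOROCYTELESS*), which acts in sporogenous cells and ovules, had signals of 45.4, 104.8 and 82.4 against 121.5, 196.5 and 194.3, a log2 difference of 1.19 (SE 0.42, 95% interval 0.22 to 2.16, limma adjusted p = 0.225). Its arrays did not overlap, as for 14.2% of all probe sets in this direction. Only 1 *bp er* array reached 100, against 3 of *bp er fil-10*, so *SPL* was tested because of the genotype where it was higher. The *bp er* signals of 45.4 and 82.4 could not be separated from background, which leaves the size of 1.19 and its interval uncertain. Replacing both by the floor of 100 shrank the difference to 0.72. The lack of overlap did not rest on them, since it lay between 104.8 and 121.5. *TSO1*, a cell division regulator of floral tissue, differed by −0.08 (SE 0.19). The summed signal of the 3 genes ranged from 1606 to 1883 in *bp er* and from 1250 to 1716 in *bp er fil-10*. Of 8 tapetum and pollen genes 2 were measured, with a summed signal of 4864 to 5699 in *bp er* and 6389 to 8286 in *bp er fil-10*. These sums compare arrays only. *A9* (AT5G07230), a tapetum marker, differed by 0.47 (SE 0.15, limma adjusted p = 0.197), whereas the tapetum regulator *AMS* differed by −0.04 (SE 0.30). The *A9* arrays did not overlap, as for 14.2% of all probe sets in this direction, and the *AMS* arrays did. With *AMS* signals of 99.1 to 136.0, nearly all of the tapetum and pollen sum was *A9*, so that sum describes 1 gene. *SPL* likewise made up only a small part of the ovule sum. The part of floral tissue composition in the *YAB3*, *PHV* and *INO* values was not tested.

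The labelled tissue could be checked only in part. *A9* had signals of at least 4735 on every array, but *AMS*, the other tapetum and pollen gene measured, had only 99.1 to 136.0. None of the measured markers was at 0, and this held for the root genes too. The meristem genes *CLV3* and *UFO* were under 100 on all arrays, with signals of 2.7 to 53.3. The root genes *EXPA7* and *PYK10* were also under 100 on all arrays, with signals of 4.4 to 59.2. The 3′ to 5′ signal ratio of the *GAPDH* control probe sets was 1.80 to 2.25 in *bp er* and 1.78 to 2.70 in *bp er fil-10*. That of the *Actin* control probe sets was far higher, 18.0 to 21.1 and 14.2 to 22.0, so its 5′ signal was weak on every array. For both controls the ranges of the genotypes overlapped, which compares the genotypes and does not show that the RNA was intact.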

How the data were processed

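Affymetrix ATH1 arrays were hybridized with inflorescence RNA, 3 per genotype (*bp er*, *bp er fil-10*). The deposited signal intensity is a MAS value per probe set that the authors computed in GCOS (version not given in the sources used here) and scaled with a linear factor per array to a target of 500. It comes without detection calls, so low signals could not be separated from background, and a signal under 100 is given as measured only.

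Here, 64 Affymetrix controls were left out, 1 signal of 0 was raised to 0.1 and signals were converted to log2. The 14456 probe sets that reached a signal of 100 on 3 or more arrays were fitted with limma 3.58.1 in R 4.3.3 (lmFit, eBayes with an intensity trend), 2-sided, with Benjamini-Hochberg adjustment over all of them. Probe sets were named from the array annotation through the TAIR10.1 gene table; 77 of those annotated to 1 gene had no locus there. Alternatives were another filter, a pseudocount of 32, a floor of 100, quantile or median normalization, no trend, and each array left out. The fit was tested on simulated data. Python 3.11.15, pandas 2.3.3, numpy 2.4.6, scipy 1.17.1 and matplotlib 3.10.9 made tables and figures.

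To check pairing, each array's log2 signals were set against the mean of its genotype. These deviations correlated between the arrays numbered 1, 2 and 3 of either genotype with r = 0.103, 0.221 and 0.38, each over the limit of 0.1, so the replicate number was also fitted as a block. The basis is narrow: *bp er* 1 with *bp er fil-10* 2 had r = 0.183 and *bp er* 2 with *bp er fil-10* 1 had r = 0.225, and the labels name no shared batch. The members and lists were chosen with earlier results of these data known. Genes were named by rule: the 6 members, the measured genes of each list, and for each member tested the 2 named genes with the highest Pearson's r over the 6 arrays.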

Additional observations from a re-analysis of the deposited data

How the results depend on the processing

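No member passed limma's adjusted threshold under any alternative. For *YAB3* the difference kept its sign under all 17 alternatives (0.33 to 0.66, adjusted p 0.165 to 0.568), for *PHV* under all 17 (0.28 to 0.51, adjusted p 0.188 to 0.625), for *INO* under 17 (0.06 to 0.58) and for *YAB5* under 16 (−0.39 to −0.02). Several of these could not move the difference. The replicate block, no filter on low signals and no trend change only its standard error. For *YAB3*, *PHV* and *INO*, with every signal over 100, the same holds for the stricter filter and the floor of 100. Only the remaining alternatives bear on the sign. *SEU* changed sign around 0, from −0.076 to 0.087 with 1 array left out and to 0.109 without both replicate 3 arrays, with or without the replicate block. *LAS* ran from −0.53 to 1.903 with 1 array left out and was −0.52 without both replicate 3 arrays. The number of probe sets passing over the whole array was less stable. It was 1 in the comparison as reported, 540 with the replicate block, 0 with a signal of at least 100 required on all 6 arrays, 6 with a pseudocount of 32, 18 with signals under 100 raised to 100, and 15 with each array centred on its median. It was 1 to 123 with 1 array left out, the highest without *bp er fil-10* replicate 3. Without both replicate 3 arrays, an alternative chosen after seeing the data, it was 1386, and 1553 with the replicate block. Members that passed stayed at 0 in all of these; the cause of the moving count was not tested. The replicate block changed no call of a member or of a listed gene. Without detection calls, how far *LAS*, *JAG* and *NUB* stood above background is unknown.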
